A study of Mus musculus with 9 samples.

Results

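The E2F transcription factors and the pocket proteins that bind them were followed through rapamycin treatment and rapamycin resistance in a mouse tumour line. The 10 genes were E2f1 to E2f8, Rb1 and Rbl1, chosen by name as the members of this network, with earlier results of these data known. They had 22 probe sets that carry a single gene symbol in the platform annotation, of 45101 probe sets on the array. Of these, 18 passed a filter on low signal, and each of the 10 genes kept at least 1 probe set among the 12715 genes tested.

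Total RNA was hybridised to 9 Affymetrix Mouse 430 2.0 arrays, 3 in each of 3 groups. BC3H1 is a mouse brain tumour line with muscle-like traits, and rapamycin is an inhibitor of the kinase mTOR complex 1. RR_Rap was a resistant line, RR1, raised from BC3H1 cells over 6 months in 1 uM rapamycin, a dose it was kept in throughout. RS_Rap was sensitive BC3H1 cells given 100 nM rapamycin for 24 h, and RS_DMSO was sensitive BC3H1 cells given the solvent DMSO for 24 h. No allele or transgene is named for any group. There was 1 resistant line, and line, months of selection, dose and drug cannot be told apart in the resistant groups' comparisons. No label says that the 3 arrays of a group were separate cultures. The p-values therefore reflect only array-to-array spread, part or all of which may be technical.

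E2F factors bind DNA next to genes of S phase and mitosis. E2f1, E2f2 and E2f3 are known as activators, E2f4, E2f5 and E2f6 as repressors, and E2f7 and E2f8 as atypical repressors that bind DNA without a DP partner. The pocket proteins, pRB from Rb1, p107 from Rbl1 and p130 from Rbl2, hold E2F factors in a repressive state until cyclin-dependent kinases phosphorylate them. pRB pairs mainly with the activators, while p107 and p130 pair with E2f4 and E2f5. E2f6 lacks a pocket-binding region and works within a Polycomb complex. Several of these genes, among them E2f1, E2f7, E2f8 and Rbl1, are themselves known E2F targets.

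That feedback is the reason for showing promoter sequence. RefSeq promoter windows (assembly GRCm38.p6), running from 250 bases before to 50 bases after an annotated start, were matched for 7 of the 10 genes, with 9 windows in all; E2f4, E2f5 and Rb1 had none in the table used. An E2F site was searched on both strands as TTTCCCGC, TTTCGCGC, TTTGCCGC or TTTGGCGC, and as the same letters without the first T. Of 32851 mouse promoter windows, 2.26% held an 8-letter site and 9.57% a 7-letter core, which every 8-letter site contains. The 8-letter site was found in E2f2, E2f3, E2f7 and Rbl1, which is 4 of the 7 genes, and E2f8 held only the 7-letter core. By window it was 4 of 9, as E2f2 and E2f3 each had a second window without an E2F match. E2f6 had no match in its window. The E2f1 window also had none, but it may lie at an alternative start within the gene rather than at the main promoter. Below are the windows of Rbl1, E2f7 and E2f8, whose changes after 24 h of rapamycin were the clearest of these genes by adjusted p, and of E2f3, which has a site but was not called after 24 h of rapamycin. They lie at chr2:157204485-157204784, minus strand (Rbl1), chr10:110745189-110745488, plus strand (E2f7), chr7:48881547-48881846, minus strand (E2f8), and chr13:29986014-29986313, minus strand (E2f3). Each reads 5′ to 3′ along the gene, and capitals mark the E2F matches, in either orientation.
Rbl1: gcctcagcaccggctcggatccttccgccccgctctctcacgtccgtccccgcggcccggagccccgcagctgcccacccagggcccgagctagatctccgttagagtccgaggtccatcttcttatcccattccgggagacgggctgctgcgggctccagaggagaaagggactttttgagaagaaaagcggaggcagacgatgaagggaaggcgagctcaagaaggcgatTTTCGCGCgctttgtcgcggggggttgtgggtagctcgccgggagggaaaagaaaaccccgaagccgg
E2f7: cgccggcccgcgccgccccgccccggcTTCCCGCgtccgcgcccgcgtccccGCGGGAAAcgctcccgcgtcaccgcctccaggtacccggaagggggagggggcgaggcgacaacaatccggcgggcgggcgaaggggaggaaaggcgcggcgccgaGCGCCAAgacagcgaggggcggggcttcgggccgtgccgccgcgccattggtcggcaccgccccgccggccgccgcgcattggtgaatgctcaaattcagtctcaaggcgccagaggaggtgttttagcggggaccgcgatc
E2f8: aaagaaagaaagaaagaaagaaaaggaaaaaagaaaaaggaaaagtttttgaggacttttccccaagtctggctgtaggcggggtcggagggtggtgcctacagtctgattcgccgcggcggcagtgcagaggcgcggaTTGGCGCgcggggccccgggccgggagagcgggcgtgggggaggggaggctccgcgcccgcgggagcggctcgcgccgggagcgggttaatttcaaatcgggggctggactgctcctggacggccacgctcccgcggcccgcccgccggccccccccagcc
E2f3: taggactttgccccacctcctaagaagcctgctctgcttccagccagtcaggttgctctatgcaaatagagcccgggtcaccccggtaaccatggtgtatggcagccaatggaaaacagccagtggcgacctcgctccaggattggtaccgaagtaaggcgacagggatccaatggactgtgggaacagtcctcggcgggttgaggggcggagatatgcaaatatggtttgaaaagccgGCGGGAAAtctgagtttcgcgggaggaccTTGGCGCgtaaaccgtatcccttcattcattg
In Rbl1 the site TTTCGCGC lies at positions -18 to -11 from the annotated start. In E2f7 the site TTTCCCGC lies on the opposite strand at positions -198 to -191 from the start, between 2 further 7-letter cores. In E2f8 the core TTGGCGC lies at -111 to -105, and in E2f3 a site TTTCCCGC on the opposite strand lies at -11 to -4. The cell-cycle element TTTGAA, searched on both strands and found in 17.9% of all windows, was present in 1 window each of E2f2, E2f3 and E2f8. These matches describe letters and not binding, which was not measured here.

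Signals are the authors' linear array intensities, and 1 probe set stood for each gene (the one with the highest mean). Changes are differences in log2(signal + 16) with their standard error (n = 3 arrays a group), from a limma fit of all tested genes over the 9 arrays. A gene was called where its p, adjusted after Benjamini and Hochberg, was under 0.05. Such changes understate those of dim genes, and signals were not compared between genes. Array medians were 33.5 to 44.3 except on RS_DMSO array 3, which was set apart by a median of 66.2. Only 17.4% of its probe sets were under 16, compared with 29.3% to 34.8% elsewhere. All 7 myogenic markers checked passed the filter, and their summed signal was 19434 to 21223 in RR_Rap, 45150 to 48686 in RS_Rap and 36257 to 47827 in RS_DMSO arrays. The markers did not all go one way in the resistant line. The acetylcholine receptor gene Chrna1 averaged 15.1 in RR_Rap and 529 in RS_DMSO, and the myogenic factor gene Myog 98.9 in RR_Rap and 6.50 in RS_DMSO. Myog passed the filter through RR_Rap, as its means in RS_Rap (17.8) and RS_DMSO were below the filter level of 22.2. The Chrna1 mean in RR_Rap was also below that level. The other 5 markers were lower in RR_Rap, with Vim and Acta2 making up most of the sums. Of 8 markers of other cell types 4 passed the filter, and Ptprc, Pecam1, Cdh5 and Olig2 did not. The RS_DMSO means of Ptprc (29.1) and Cdh5 (32.3) were nonetheless above the filter level. The sums of all 8 were 174 to 224 in RR_Rap, 168 to 241 in RS_Rap and 150 to 781 in RS_DMSO arrays. The 3′ minus 5′ difference of the Actb control probe sets, a sign of RNA quality, was 0.33 ± 0.02 in RR_Rap, 0.19 ± 0.04 in RS_Rap and 0.17 ± 0.01 in RS_DMSO arrays (log2, SD, n = 3). RR_Rap thus differs from the other groups in this measure too, and its part in the results on the resistant line was not tested.

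After 24 h of rapamycin, transcripts of 7 of the 10 genes fell and none rose. On the log2(signal + 16) scale the falls were 4.41-fold and 4.49-fold for the atypical repressors E2f7 and E2f8, 2.67-fold for the pocket protein gene Rbl1 and 2.05-fold for E2f2, and smaller for E2f1, E2f5 and E2f6. The fall of E2f2, whose RS_Rap mean was below the filter level, is understated on this scale and was -1.84 with a pseudocount of 1, so its place relative to Rbl1 is not settled. E2f3, E2f4 and Rb1 were not called. Among all tested genes 35.6% were called in this comparison, 15.2% lower and 20.4% higher. The median change of the 10 genes was -0.55, against 0.03 for all tested genes. In bulk RNA, fewer cells of a type and less RNA per cell cannot be told apart. The array values of RS_Rap and RS_DMSO did not overlap for 8 of the 10 genes, as for 43.2% of all tested genes.

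The resistant line, kept in rapamycin, had more E2f3, E2f4 and E2f6 and less Rb1 transcript than the DMSO cells, by the brightest probe set of each gene. E2f1, E2f2, E2f5, E2f7, E2f8 and Rbl1 were not called, although second probe sets of E2f1, E2f5 and E2f8 were, and the calls of E2f3 and E2f6 were lost with the mean of probe sets. Against RS_DMSO, 3 of the 10 genes were higher in RR_Rap, 1 was lower and 6 were not called. Among all tested genes 51.8% were called, 25.9% higher and 25.8% lower. The share of tested genes that changed more was 37.8% for E2f3, 18.4% for E2f4, 46.3% for E2f6 and 52.8% for Rb1. The median change was -0.08 for the 10 genes and -0.07 for all tested genes, and arrays did not overlap for 7 of the 10 genes and for 58.6% of all. Against RS_Rap, 8 of the 10 genes were higher in RR_Rap, only Rb1 was lower and E2f5 was not called. In that comparison 56.5% of all tested genes were called, 26.4% higher and 30.1% lower, and arrays did not overlap for 9 of the 10 genes and for 65.4% of all. The median change was 0.98 for the 10 genes and -0.08 for all tested genes. The balance of all tested genes depended on scaling there. As deposited 3353 were higher and 3833 lower, and after centring arrays on the 75th percentile 3895 were higher and 3240 lower. The 3 comparisons share their arrays in pairs, so the contrasts are not independent. Without RS_DMSO array 3, 7, 4 and 9 of the 10 genes were called, and each gene kept its call and its direction where called.

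**Figure D1:**
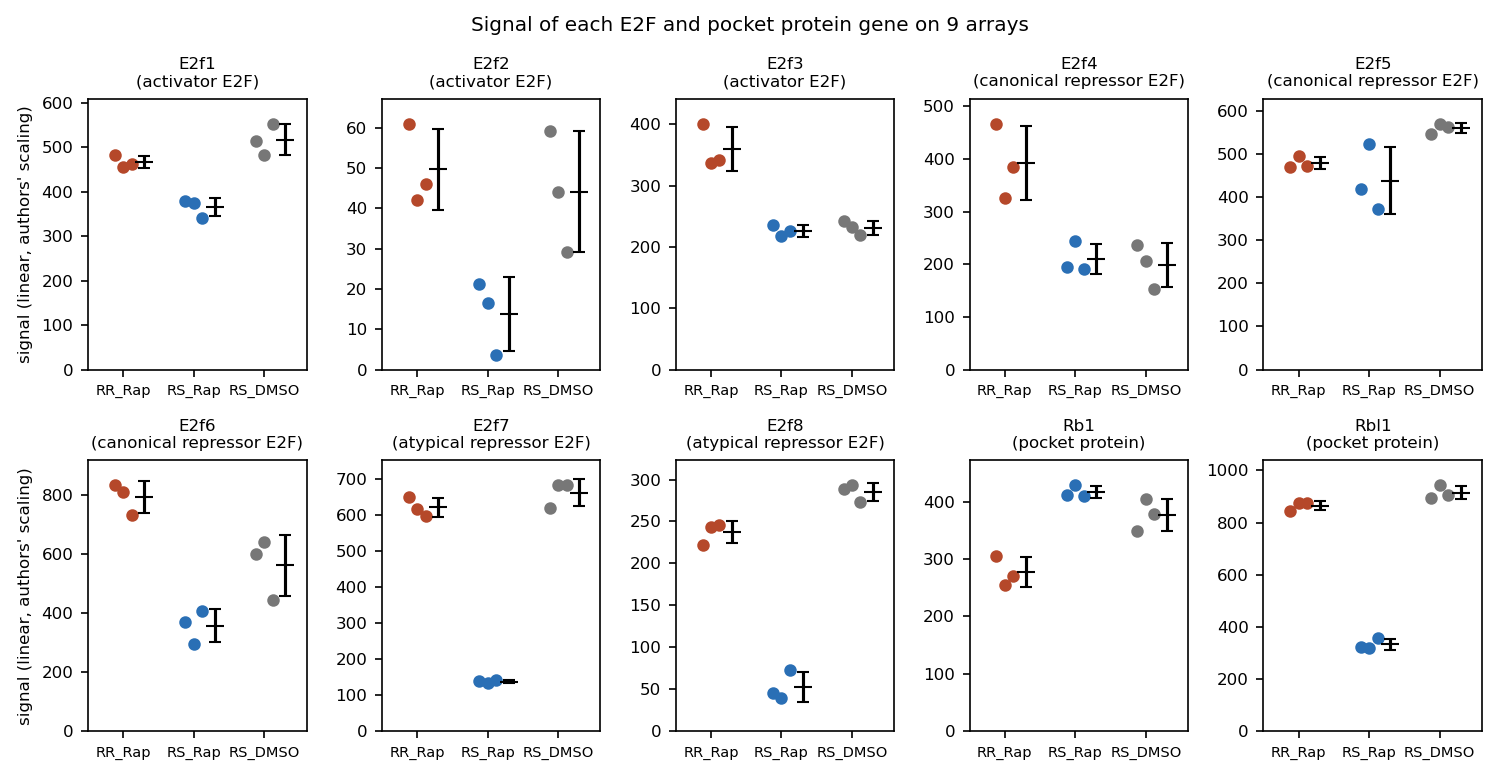
Signals of the 10 genes (linear array intensity as scaled by the authors, axes from 0) on the 9 arrays, with RR_Rap left, RS_Rap in the middle and RS_DMSO right; points are arrays and bars are group means with their SD (n = 3). The RS_Rap points of E2f7, E2f8 and Rbl1 lie below all other arrays, and those of Rb1 lie above.

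**Figure D2:**
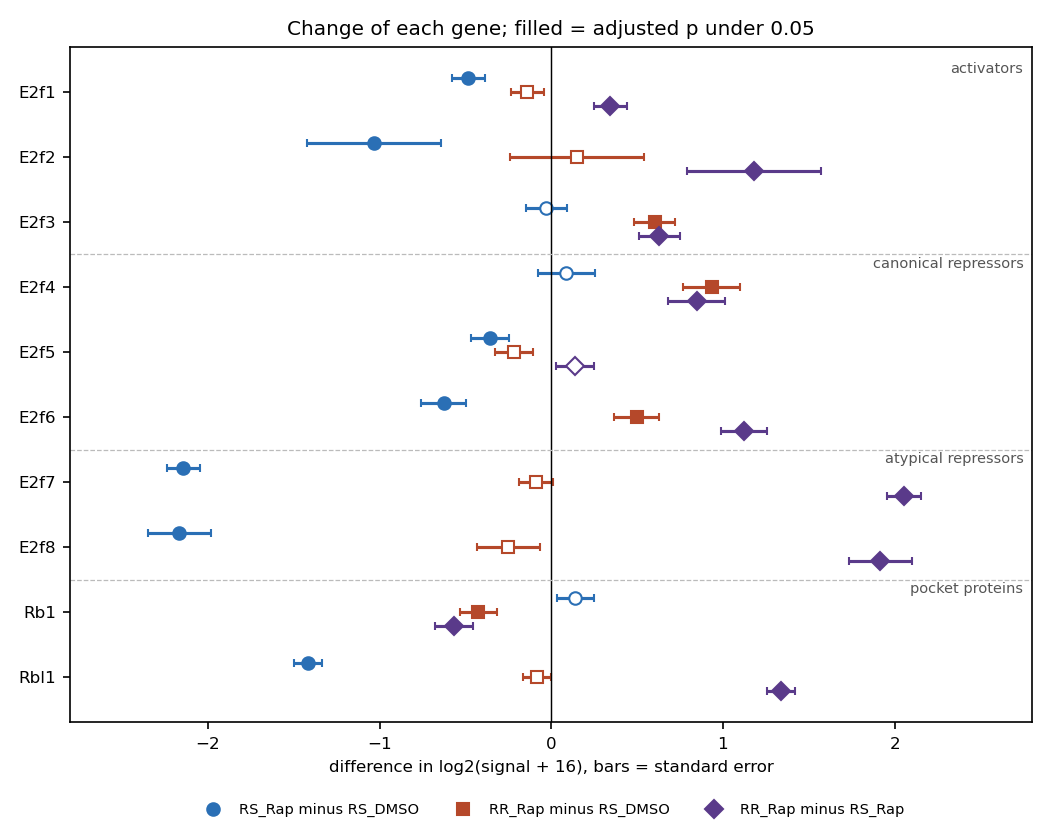
Change of each gene in log2(signal + 16) in the 3 comparisons, with bars of 1 standard error from limma; each difference is the first-named group minus the other, and filled points had an adjusted p under 0.05. E2f7, E2f8 and Rbl1 have the largest changes after 24 h of rapamycin, and E2f3, E2f4 and E2f6 lie above 0 in RR_Rap against RS_DMSO.

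Of the activators, E2f1 and E2f2 fell after 24 h of rapamycin and E2f3 was not called. E2f1, which drives entry into S phase and can also promote cell death, had signals of 483, 456 and 462 in RR_Rap, 379, 375 and 341 in RS_Rap, and 513, 483 and 553 in RS_DMSO. The RS_Rap arrays were the lowest of all, and the RR_Rap and RS_DMSO arrays overlapped narrowly at 483. The change in RS_Rap against RS_DMSO was -0.48 ± 0.10 (adjusted p = 0.000654). In RR_Rap it was 0.34 ± 0.10 against RS_Rap (adjusted p = 0.00492) and -0.14 against RS_DMSO, with a 95% interval of -0.34 to 0.06 (adjusted p = 0.242).

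A second E2f1 probe set read differently. It gave 310, 315 and 289 in RR_Rap, 225, 149 and 159 in RS_Rap, and 259, 176 and 188 in RS_DMSO. The RS_Rap and RS_DMSO arrays overlapped there, with a change of -0.21 that was not called (adjusted p = 0.392). The RR_Rap arrays were above all others, by 0.54 ± 0.17 against RS_DMSO (adjusted p = 0.0148), where the brighter probe set was not called. The p-values of single probe sets come from limma on the 23173 that passed the filter, of which 30.5%, 46.6% and 51.6% were called in the RS_Rap against RS_DMSO, RR_Rap against RS_DMSO and RR_Rap against RS_Rap comparisons. The E2f1 results of the resistant line against DMSO therefore depend on the probe set, and the remaining probe set of E2f1 did not pass the filter.

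E2f2, an activator whose functions overlap with those of E2f1 and E2f3, had a mean below the filter level in RS_Rap. Its signals were 61.0, 42.0 and 46.1 in RR_Rap, 21.2, 16.5 and 3.64 in RS_Rap, and 59.1, 44.1 and 29.2 in RS_DMSO. The RS_Rap arrays lay below all others, and the RR_Rap and RS_DMSO arrays overlapped. The change was -1.03 ± 0.39 in RS_Rap against RS_DMSO, close to the threshold (adjusted p = 0.0483), and this call was lost in 13 of 18 alternative settings. RR_Rap was higher than RS_Rap by 1.18 ± 0.39 (adjusted p = 0.0152) and differed from RS_DMSO by 0.15, with an interval of -0.68 to 0.97. The second E2f2 probe set averaged 48.3 in RR_Rap, 10.6 in RS_Rap and 30.8 in RS_DMSO. It gave -0.87 in RS_Rap against RS_DMSO (adjusted p = 0.119) and 1.33 ± 0.40 in RR_Rap against RS_Rap (adjusted p = 0.0102). Both probe sets passed the filter through RR_Rap and RS_DMSO, as their RS_Rap means were below its level. The second one therefore adds no support to a difference.

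E2f3, the activator gene whose long and short products E2F3a and E2F3b arise from different starts, had a different order of groups. It read 401, 337 and 342 in RR_Rap, 236, 217 and 226 in RS_Rap, and 242, 233 and 219 in RS_DMSO. All RR_Rap arrays were above all others, while RS_Rap and RS_DMSO overlapped. RS_Rap differed from RS_DMSO by -0.03, with a 95% interval of -0.28 to 0.23. RR_Rap was higher by 0.60 ± 0.12 against RS_DMSO (adjusted p = 0.000429) and by 0.63 ± 0.12 against RS_Rap (adjusted p = 0.000215). The second E2f3 probe set overlapped in all groups, at 74.8 to 95.3 in RR_Rap, 30.2 to 110 in RS_Rap and 71.5 to 160 in RS_DMSO, and was called in no comparison. With the mean of both probe sets, the rise against RS_DMSO was 0.23 and not called (adjusted p = 0.336).

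Of the canonical repressors, E2f5 and E2f6 fell after 24 h of rapamycin, and E2f4 and E2f6 were higher in the resistant line than in the DMSO cells. E2f4, the main E2F of quiescent cells, has 1 probe set, with 467, 326 and 384 in RR_Rap, 195, 244 and 192 in RS_Rap, and 236, 207 and 153 in RS_DMSO. All RR_Rap arrays were above the others, and RS_Rap and RS_DMSO overlapped. RR_Rap was higher by 0.93 ± 0.17 against RS_DMSO (adjusted p = 0.000134) and by 0.85 ± 0.17 against RS_Rap (adjusted p = 0.000268). RS_Rap differed from RS_DMSO by 0.09, with an interval of -0.26 to 0.44. RS_DMSO array 3 had the lowest value of all, and without it the difference of RR_Rap and RS_DMSO was 0.77 (adjusted p = 0.000519).

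E2f5, a partner of p107 and p130, had the smallest difference of the 10 genes between the resistant line and the treated sensitive cells. Its signals were 470, 496 and 472 in RR_Rap, 419, 523 and 372 in RS_Rap, and 546, 570 and 562 in RS_DMSO. The RS_DMSO arrays were above all others, while RR_Rap and RS_Rap overlapped. The change in RS_Rap against RS_DMSO was -0.36 ± 0.11 (adjusted p = 0.0168), and it was not called without RS_Rap array 1 (-0.33, adjusted p = 0.0517) or array 3 (-0.25, adjusted p = 0.101). RR_Rap was not called against RS_DMSO (-0.22, interval -0.45 to 0.01) or against RS_Rap (0.14, interval -0.09 to 0.37). Without RS_Rap array 2, the highest of its group, the difference of RR_Rap and RS_Rap was 0.27 and called (adjusted p = 0.034). A second E2f5 probe set was lower in RS_Rap (-0.31 ± 0.10, adjusted p = 0.0297) and in RR_Rap (-0.36 ± 0.10, adjusted p = 0.0072) than in RS_DMSO, and another, at 65.8 to 794 over all arrays, was called in no comparison.

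E2f6, the pocket-independent repressor, was high in the resistant line and low after 24 h of rapamycin. Its signals were 833, 810 and 731 in RR_Rap, 370, 295 and 406 in RS_Rap, and 600, 640 and 445 in RS_DMSO. The 3 groups did not overlap. The change in RS_Rap against RS_DMSO was -0.63 ± 0.13 (adjusted p = 0.00114). RR_Rap was higher than RS_DMSO by 0.50 ± 0.13 (adjusted p = 0.00409) and than RS_Rap by 1.12 ± 0.13 (adjusted p = 8.35e-07). RS_DMSO array 3 was the lowest of its group. Without it the differences were -0.78 for RS_Rap and 0.34 for RR_Rap against RS_DMSO, both still called. The second E2f6 probe set was near the filter, from 1.83 to 54.0 over all arrays, and was called in no comparison, with -0.44 in RR_Rap against RS_DMSO (adjusted p = 0.507). With the mean of both probe sets, the difference of RR_Rap and RS_DMSO was 0.03 and not called (adjusted p = 0.935).

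The atypical repressors E2f7 and E2f8, which act late in S phase to shut down E2F targets, had the largest changes of the 10 genes in both comparisons with RS_Rap. E2f7 had 1 probe set, with 649, 617 and 596 in RR_Rap, 138, 132 and 141 in RS_Rap, and 618, 681 and 682 in RS_DMSO. Every RS_Rap array was far below every other, and RR_Rap and RS_DMSO overlapped. The change in RS_Rap against RS_DMSO was -2.14 ± 0.10, or 4.41-fold lower (adjusted p = 1.9e-11), and only 0.779% of tested genes changed more. RR_Rap was 4.16-fold higher than RS_Rap (2.06 ± 0.10, adjusted p = 6.04e-12) and differed from RS_DMSO by -0.09, with an interval of -0.29 to 0.12.

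E2f8 gave 222, 244 and 245 in RR_Rap, 45.0, 39.3 and 73.3 in RS_Rap, and 289, 293 and 273 in RS_DMSO. The 3 groups did not overlap, with RS_DMSO highest. RS_Rap was 4.49-fold lower than RS_DMSO (-2.17 ± 0.18, adjusted p = 6.3e-08), and RR_Rap was 3.77-fold higher than RS_Rap (1.92 ± 0.18, adjusted p = 6.74e-08). RR_Rap differed from RS_DMSO by -0.25, with an interval of -0.64 to 0.14 (adjusted p = 0.276). The second E2f8 probe set passed the filter only through RS_DMSO. At 6.15 to 26.6 in RR_Rap, 4.49 to 8.24 in RS_Rap and 48.0 to 78.2 in RS_DMSO, its means in both rapamycin groups were below the filter level. The changes were -1.30 ± 0.41 for RR_Rap (adjusted p = 0.0152) and -1.90 ± 0.41 for RS_Rap (adjusted p = 0.00181), and RR_Rap was not called against RS_Rap (0.60, adjusted p = 0.244). A probe set kept by the group in which it is high adds no support to a difference.

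**Figure D3:**
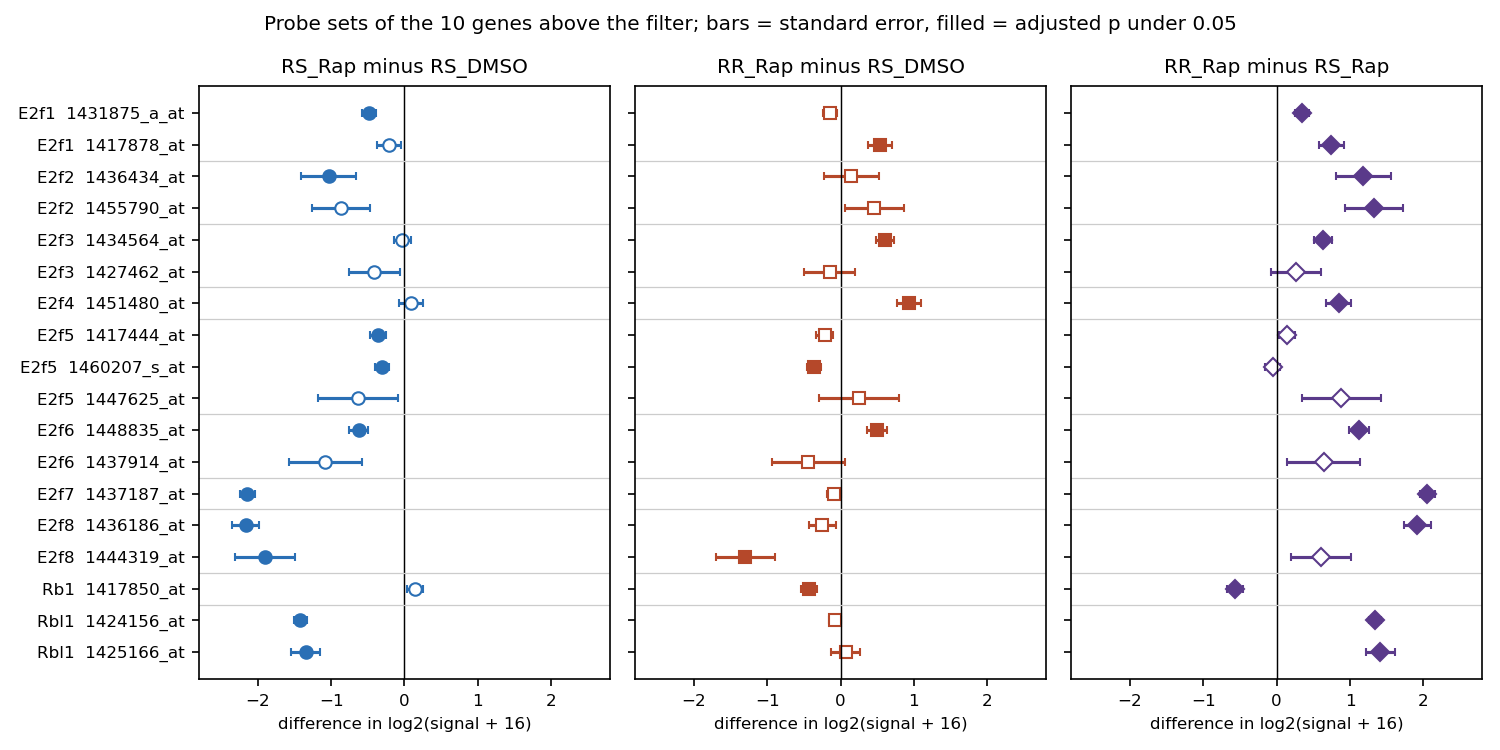
Change of each of the 18 probe sets above the filter in log2(signal + 16) in the 3 comparisons (left to right), with bars of 1 standard error from limma; filled points had an adjusted p under 0.05. The second probe sets of E2f1, E2f3, E2f6 and E2f8 lie apart from the brightest one in RR_Rap against RS_DMSO, and those of Rbl1 lie together.

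The 2 pocket protein genes differed in opposite directions between RR_Rap and RS_Rap, Rbl1 being higher and Rb1 lower in RR_Rap. Rbl1, the gene of p107, had 844, 873 and 875 in RR_Rap, 322, 319 and 356 in RS_Rap, and 895, 944 and 905 in RS_DMSO. The 3 groups did not overlap, but RR_Rap was close below RS_DMSO. RS_Rap was 2.67-fold lower than RS_DMSO (-1.42 ± 0.08, adjusted p = 3.26e-10), and 2.71% of tested genes changed more. RR_Rap was 2.53-fold higher than RS_Rap (1.34 ± 0.08, adjusted p = 1.53e-10) and was not called against RS_DMSO (-0.08, interval -0.25 to 0.09). The second Rbl1 probe set was again lowest in RS_Rap, while its RR_Rap and RS_DMSO arrays overlapped, with -1.35 ± 0.20 in RS_Rap against RS_DMSO (adjusted p = 6.8e-05), 0.07 in RR_Rap against RS_DMSO and 1.42 ± 0.20 in RR_Rap against RS_Rap (adjusted p = 1.22e-05).

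Rb1, the gene of the retinoblastoma protein, was lowest in the resistant line. It read 305, 255 and 271 in RR_Rap, 412, 429 and 409 in RS_Rap, and 348, 404 and 379 in RS_DMSO. The 3 groups did not overlap, with RS_Rap highest. The change in RR_Rap was -0.43 ± 0.11 against RS_DMSO (adjusted p = 0.00311) and -0.57 ± 0.11 against RS_Rap (adjusted p = 0.000208). The change in RS_Rap against RS_DMSO was 0.14, with an interval of -0.09 to 0.37, and was not called (adjusted p = 0.353). The second Rb1 probe set stayed below the filter.

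Rbl2, the gene of p130 and the remaining pocket protein gene, was counted with the DREAM complex partners. It averaged 287 ± 20.8 in RR_Rap, 558 ± 17.9 in RS_Rap and 454 ± 26.3 in RS_DMSO (SD, n = 3). Like Rb1 it was lower in RR_Rap, with a change of -0.64 ± 0.10 against RS_DMSO (adjusted p = 3.11e-05) and -0.93 ± 0.10 against RS_Rap (adjusted p = 2.36e-07). In RS_Rap it was higher than in RS_DMSO by 0.29 ± 0.10 (adjusted p = 0.0282), a call lost without RS_DMSO array 3 (0.25, adjusted p = 0.0658) or array 1 (0.0611), or RS_Rap array 2 (0.0733) or array 3 (0.0825). This call was also lost with arrays centred on the 75th percentile.

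The partners and regulators of the network came from textbook lists, also chosen with earlier results of these data known. Members of each list beyond the 3 largest called changes were named after their values were seen. For comparison with the list counts, 35.6% of all tested genes were called in RS_Rap against RS_DMSO. The shares were 51.8% in RR_Rap against RS_DMSO and 56.5% in RR_Rap against RS_Rap. The DP proteins, which the canonical E2F factors need to bind DNA, are encoded by Tfdp1 and Tfdp2. Tfdp1 averaged 2918 ± 13.8 in RR_Rap, 1241 ± 121 in RS_Rap and 1971 ± 6.29 in RS_DMSO, and changed by -0.67 ± 0.08 in RS_Rap against RS_DMSO (adjusted p = 2.05e-06). Tfdp2 averaged 653 ± 23.8 in RR_Rap, 355 ± 39.2 in RS_Rap and 339 ± 21.0 in RS_DMSO and was not called after 24 h of rapamycin (adjusted p = 0.708). Both were higher in RR_Rap than in RS_DMSO, by 0.56 ± 0.08 (Tfdp1, adjusted p = 6.5e-06) and 0.91 ± 0.10 (Tfdp2, adjusted p = 8.84e-07). Tfdp2, like E2f3 and E2f4, was higher in RR_Rap than in both other groups and not called between those.

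Of 8 tested genes of the DREAM, MuvB and FoxM1 group, which represses or activates cell-cycle genes with p107, p130 and E2f4, 4 fell and 1 rose in RS_Rap against RS_DMSO, with a median of -0.84. The falls were largest for Mybl2 (-1.89 ± 0.18), Lin54 (-1.79 ± 0.13) and Foxm1 (-1.73 ± 0.20), and Rbl2 was the one that rose. In RR_Rap against RS_DMSO 3 were higher and 2 lower, among them Mybl2 (0.57 ± 0.18), the kinase gene Dyrk1a (0.50 ± 0.10) and Rbl2 as given above. In RR_Rap against RS_Rap 6 were higher and 1, Rbl2, was lower.

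Of 15 tested upstream cyclins, kinases and inhibitors, 7 fell and 3 rose in RS_Rap against RS_DMSO. The cyclins that activate CDK2 had the largest falls, at -2.43 ± 0.14 for Ccne2, -2.36 ± 0.09 for Ccna2 and -1.92 ± 0.09 for Ccne1. The 3 that rose were Cdkn2b (0.64 ± 0.11) and Cdkn1b (0.50 ± 0.10), which encode CDK inhibitors, and the cyclin D1 gene Ccnd1 (0.37 ± 0.08). Of the other CDK inhibitor genes tested, Cdkn1a (-1.46 ± 0.16), Cdkn2d (-1.32 ± 0.08) and Cdkn2c (-0.47 ± 0.07) fell and Cdkn2a was not called. In RR_Rap against RS_DMSO 5 were higher and 8 lower (3 to 5 and 7 to 8 over the alternatives). The inhibitor gene Cdkn2a was higher by 1.64 ± 0.26, while Ccnd1 and Ccnd2, whose cyclins lead the kinases that phosphorylate pRB, were lower, at -1.32 ± 0.08 and -1.13 ± 0.07. The kinase genes Cdk4 (0.70 ± 0.08) and Cdk6 (0.69 ± 0.10) were also higher, as was Cdkn1b (0.28 ± 0.10). The Cdkn1b call was lost without RS_DMSO array 3 (adjusted p = 0.0897), RR_Rap array 1 (0.0626) or RR_Rap array 3 (0.0794). Among those lower were the inhibitor genes Cdkn2b (-0.84 ± 0.11) and Cdkn1a (-0.60 ± 0.16). In RR_Rap against RS_Rap 9 were higher and 5 lower, led by Ccna2 (2.34 ± 0.09), Ccne2 (2.32 ± 0.14) and Ccne1 (2.31 ± 0.09). Without RS_DMSO array 3 the counts were 4 higher and 8 lower in both RS_Rap and RR_Rap against RS_DMSO.

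Of 28 tested textbook E2F target genes, 27 fell in RS_Rap against RS_DMSO and none rose, with a median of -1.96. The exception was the thymidylate synthase gene Tyms, at -0.44 (adjusted p = 0.305). The largest falls were those of the replication genes Mcm5 (-3.17 ± 0.08) and Cdc6 (-3.15 ± 0.19) and of the thymidine kinase gene Tk1, which averaged 357 in RS_Rap and 2962 in RS_DMSO. In RR_Rap against RS_DMSO 9 targets were higher, 6 were lower and 13 were not called, with a median of 0.12, and without RS_DMSO array 3 the counts were 11 and 6. Over all alternatives 7 to 11 targets were higher and 3 to 9 lower, with 11 and 3 after centring arrays on the 75th percentile and 11 and 9 after quantile normalization. The DNA methylation genes Dnmt1 and Uhrf1 and the licensing gene Cdt1 were higher, by 0.90 ± 0.09, 0.85 ± 0.15 and 0.86 ± 0.09. In RR_Rap against RS_Rap all 28 were higher, with a median of 2.21, led by Uhrf1 (3.47 ± 0.15), Mcm3 (3.40 ± 0.08) and Mcm5 (3.08 ± 0.08). Beside the target median of -1.96 after 24 h of rapamycin, E2f7 and E2f8 changed by -2.14 and -2.17 and E2f1 by -0.48. An 8-letter E2F site was found in the promoter windows of 14 of 24 target genes with a window (14 of 28 windows), and 4 targets also belong to the regulator lists above.

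**Figure D4:**
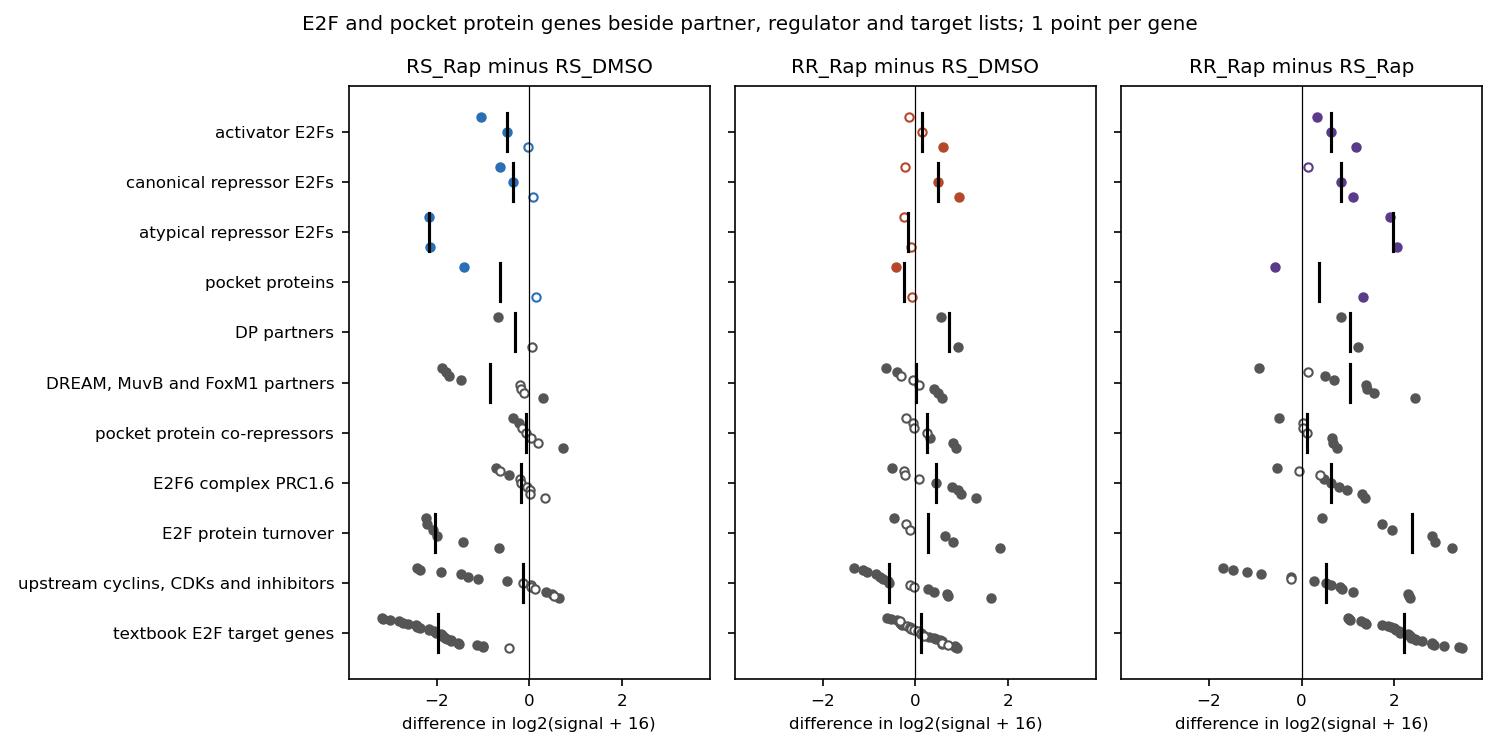
Change of the tested genes of each list in log2(signal + 16) in the 3 comparisons; each point is a gene, filled where its adjusted p was under 0.05, each upright bar is a list median, and coloured points are the 10 genes. Textbook E2F target genes lie below 0 in RS_Rap against RS_DMSO and above 0 in RR_Rap against RS_Rap, with a median near 0 in RR_Rap against RS_DMSO.

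Genes linked to the turnover of E2F proteins or their regulators fell in RS_Rap against RS_DMSO in 6 of 6 cases, with a median of -2.03. The largest falls were those of Ube2c (-2.23 ± 0.10), Fbxo5 (-2.21 ± 0.11) and Ccnf (-2.07 ± 0.15). Cyclin F, from Ccnf, is known to target E2F1, E2F2, E2F3, E2F7 and E2F8 proteins in human cells. In RR_Rap against RS_DMSO 3 were higher and 1 was lower. Skp2, whose ubiquitin ligase acts on p130 and on E2f1, averaged 2541 ± 60.2 in RR_Rap, 252 ± 10.8 in RS_Rap and 711 ± 63.6 in RS_DMSO, a difference of 1.82 ± 0.08 in RR_Rap against RS_DMSO (adjusted p = 8.34e-12). In RR_Rap against RS_Rap all 6 were higher, Skp2 by 3.26 ± 0.08.

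Of 9 tested genes of the Polycomb complex that holds E2f6, 2 fell in RS_Rap against RS_DMSO, L3mbtl2 (-0.72 ± 0.18) and Wdr5 (-0.44 ± 0.09), and none rose. In RR_Rap against RS_DMSO 5 were higher and 1 was lower, with a median of 0.44. Among all tested genes 25.9% were higher and 25.8% lower there. Max (1.32 ± 0.36), Mga (0.98 ± 0.18) and Wdr5 (0.93 ± 0.09) were higher, and Max varied widely in RS_DMSO (78.5 ± 62.1, SD). E2f6 itself was higher in that comparison by its brightest probe set but not by the mean of both. The lower one was Yaf2 (-0.51 ± 0.07), and without RS_DMSO array 3 the counts were 5 and 2. In RR_Rap against RS_Rap 6 were higher and 1 lower, Wdr5 by 1.36 ± 0.09. Of 6 germline genes that E2f6 is known to silence, only Tdrkh passed the filter; its change was -1.06 ± 0.10 in RS_Rap against RS_DMSO, and it was not called in RR_Rap against RS_DMSO.

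Of 7 tested co-repressors of the pocket proteins, 2 fell and 1 rose in RS_Rap against RS_DMSO. The demethylase gene Kdm5a was higher by 0.72 ± 0.12, and Hdac2 (-0.35 ± 0.08) and Rbbp7 (-0.23 ± 0.08) were lower. The call of Rbbp7 was lost in 7 of the 9 fits that leave out 1 array (adjusted p = 0.0659 to 0.16), and with the mean of all probe sets of a gene none of the 7 was called there. In RR_Rap against RS_DMSO 3 were higher, Smarca4 by 0.88 ± 0.08, Sin3a by 0.81 ± 0.11 and Hdac2 by 0.31 ± 0.08, and none was lower. In RR_Rap against RS_Rap 3 were higher and 1 lower.

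The 10 genes were also set against each other and against other tested genes by pattern. The measure was the root mean square difference of gene-centred log2(signal + 16) over the 9 arrays. Members and clone, EST, RIKEN and predicted-gene names were left out of the nearest genes, so these are the nearest among the remaining names. The closest pairs were E2f1 with E2f5 (0.139), E2f7 with E2f8 (0.190) and E2f3 with E2f4 (0.214), and the pairs E2f1 with E2f5 and E2f3 with E2f4 each join an activator and a repressor. Small distances also arise where both genes changed little. The least alike were E2f7 and Rb1 (1.17). The genes nearest to E2f7 were Prim1, Smc2 and Sgo2a (0.0825 to 0.0979), which act in DNA replication, chromosome condensation and chromatid cohesion. Those nearest to E2f8 were Ccnf (0.0999), the replication gene Wdhd1 and Cdk1. Those nearest to Rbl1 were the gamma-tubulin gene Tubg1 (0.0594), Hmgb3 and Parpbp. Nearest to E2f1 were Elof1 (0.0712), Cactin and Wdr55, and nearest to E2f2 were Pola2 (0.223), Fam72a and Aimp2. For E2f3 they were Sf3b3 (0.0520), Patl1 and Rbm12, and for E2f4 Pan2 (0.127), Tatdn1 and Tcf3. For E2f5 they were Coa6 (0.0761), Kpna4 and Grhpr, for E2f6 Bccip (0.0719), Fubp1 and Nfx1, and for Rb1 Tom1 (0.0633), Phlda3 and Cnot4. These distances describe 9 arrays in 3 groups.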

How the data were processed

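The authors deposited linear array intensities, 1 signal per probe set and array, made with GCOS 1.4, the Affymetrix array software, per the submitters' processing notes. Which summary algorithm GCOS ran is not given in the sources used here. The mean of each array, leaving out 2% of values at either end, was 250, as read from the deposited signals. The number of arrays limits the precision. Scan batches were not used here.

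Signals were kept as deposited, since the 75th percentiles of the arrays differed by 0.17 on the log2 scale, and were analysed here as log2(signal + 16). Those percentiles were 7.85 to 7.89 in RR_Rap, 8.00 in RS_Rap and 7.93 to 8.02 in RS_DMSO arrays. The RR_Rap arrays were thus the lowest. The filter was a mean above the 40th percentile (22.2) of non-control probe sets. With limma 3.58.1 (R 4.3.3; lmFit, eBayes with trend), the 9 arrays were fitted over 12715 genes in 3 comparisons. The fit was tested on simulated data. All 10 genes were named whatever their result, with up to 3 called genes per other list and comparison. The 3 nearest genes in pattern were named too, after the exclusions given above. The members and lists were chosen with earlier results of these data known. Groups came from sample titles. Replicate numbers gave no sign of pairing over all tested genes: same-number deviations correlated at -0.08 to 0.02 over 9 pairs, with 0 above 0.1. Different-number deviations correlated at -0.05 to 0.08 over 18 pairs. A correlation over all genes cannot exclude pairing that touches few of them. Alternatives varied the pseudocount, filter, scaling, trend, probe set rule, arrays fitted and replicate block, and left out each array.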

Additional observations from a re-analysis of the deposited data

How the results depend on the processing

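The counts of called genes stayed within 1.5 times under every alternative run: 5 to 7, 3 to 5 and 8 to 10 of the 10 genes in RS_Rap against RS_DMSO, RR_Rap against RS_DMSO and RR_Rap against RS_Rap. Of 567 alternative values of single members, 542 stayed called in the same direction or stayed not called. A call was lost in 22 and gained in 3, and 0 calls reversed. Values that were not called could change sign. This was so for E2f1, E2f2, E2f7 and Rbl1 in RR_Rap against RS_DMSO. It was also so for E2f3 and E2f4 in RS_Rap against RS_DMSO, where E2f4 ran from -0.07 to 0.21. With a replicate block 6, 4 and 9 members were called, of 4382, 6448 and 7100 genes; the block ended the call of E2f2 (adjusted p = 0.0517) and of no other member. E2f2 in RS_Rap against RS_DMSO changed by -1.84 with a pseudocount of 1 and -0.47 with 64, its adjusted p ran from 0.0162 to 0.175, and it could not be tested with a filter at the 60th percentile. Its call in RR_Rap against RS_Rap was lost without RR_Rap replicate 1 (adjusted p = 0.0798) and without RS_Rap replicate 3 (0.0694). E2f5 in RS_Rap against RS_DMSO was lost without a trend (adjusted p = 0.0551) and with the mean of probe sets (0.157), and in RR_Rap against RS_DMSO it was called with only 6 arrays (0.0416). With the mean of probe sets E2f3 was also not called in RR_Rap against RS_Rap (0.45, adjusted p = 0.0534), E2f6 not in RR_Rap against RS_DMSO (0.03, adjusted p = 0.935), and E2f8 was called lower there (-0.77, adjusted p = 0.00878). Centring arrays on the 75th percentile moved the median of all genes in RR_Rap against RS_Rap to 0.05, against -0.08 as deposited. In RR_Rap against RS_DMSO 3777 genes were then called higher and 2756 lower, against 3299 and 3282 as deposited. The list counts under these settings were added after seeing the data, and the co-repressors called in RS_Rap against RS_DMSO went to 0 with the mean of probe sets. The causes were not tested. Signals near the filter limit E2f2 and the second probe sets of E2f6 and E2f8.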
